A study of Mus musculus with 12 samples.

Results

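The comparison described here is that of side population (SP) with non-SP cells of the mouse line A2C12 after anti-EpCAM treatment. It holds 6 of the 12 arrays of the series, 3 of each fraction, and was chosen by the labels for fraction and treatment. A2C12 is a line from a lung tumour of a C57BL/6 background mouse model with a c-myc and a further transgene, and the promoters that drive these are not given in the labels. All groups share this line and the same dye and sort. The treated SP and treated non-SP cells received a monoclonal antibody against mouse EpCAM at 100 µg/ml for 48 h. The untreated SP and untreated non-SP cells, 3 arrays each, received none, and a control antibody is not given in the labels. Cells were stained for 90 min with 5 µg/ml of the dye Hoechst, in the presence of 50 µmol/l reserpine for the control of the gate, and 200 ng of total RNA were labelled per array. Arrays of one treatment and one replicate number were compared as a pair, called pair 1, 2 and 3, and a within-pair difference is the SP value minus the non-SP value on the log2 scale.

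Side population cells stain weakly with Hoechst because ATP-binding cassette pumps in the plasma membrane export the dye, and the gate is defined by a pump inhibitor that abolishes this export. Abcg2 is the pump most often held responsible, and P-glycoprotein, encoded in mice by Abcb1a and Abcb1b, also carries Hoechst. In tumour lines the gate has been used to enrich for cells with progenitor traits. Hoechst binds DNA, so that the staining of a cell also depends on its DNA content and thus on its place in the cell cycle. EpCAM is an adhesion protein of epithelial cells whose cleaved intracellular tail enters the nucleus and acts on cell cycle genes.

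Values were read for 18194 genes, each from the probe set with the highest mean, and precision is limited by having only 3 arrays per group. On the 6 treated arrays Krt8, a keratin of simple epithelia, lay between 8.38 and 9.004, where the median gene had a mean of 7.02. Krt18, its partner keratin, lay between 5.96 and 7.398, and Cdh1, which encodes E-cadherin, between 6.09 and 7.03, so that both lay mostly below that median. Vim, a mesenchymal filament protein, lay between 13.8 and 14.1, and the collagen gene Col1a1 between 10.8 and 11.7. The surfactant gene Sftpc, the club cell gene Scgb1a1, the leukocyte gene Ptprc and the endothelial gene Pecam1 all lay below that median, the highest of them at 6.11. Pair 2 stood apart in RNA quality. The 3′ minus 5′ signal of the beta-actin control, which grows as RNA is broken or amplified incompletely, was 0.895 and 1.03 in its non-SP and SP array, against 0.183 to 0.259 in the arrays of pairs 1 and 3. Correlation across the 18194 genes between the arrays of a pair was 0.995, 0.987 and 0.998 in pairs 1 to 3, and SP array 2 matched an untreated SP array (0.988) better than its own partner.

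No gene passed the test. In the limma fit with each pair as a block, 0 of 18194 genes (0%) were higher and 0 (0%) lower in treated SP cells at a Benjamini-Hochberg adjusted p under 0.05, with a lowest adjusted p of 0.628. An unadjusted p under 0.05 was reached by 1311 genes (7.21%), 312 of them higher (1.71%) and 999 lower (5.49%). This split was 466 higher to 554 lower after a further quantile normalization of the arrays and 158 higher to 63 lower among the 9097 genes at or above the median level. The median 95% confidence interval of a gene reached 0.27 log2 units, or 1.20-fold, to either side, and for 17932 genes the whole interval lay inside a 2-fold change. These intervals rest on a spread pooled over treated and untreated pairs. They can be too narrow for genes whose treated pairs differ more among themselves. The 3 pairs allow no exact two-sided sign-flip p under 0.25, so single genes are given below with their values in each array and no further test. The labels call the replicates biological without saying which steps they shared, so that p-values measure the spread between these arrays only.

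The pumps that define the gate were not alike in the 3 pairs. Abcg2 was at 8.05, 8.24 and 8.26 in non-SP arrays 1 to 3 and at 8.34, 8.24 and 8.21 in SP arrays 1 to 3. The fractions overlapped, and pair 1, at 0.29, differed more than pairs 2 and 3, at 0.0020 and -0.05. The mean difference was 0.08 ± 0.12 (SE, n = 3 pairs; SD of the pair differences 0.18), with a 95% confidence interval from -0.19 to 0.35. Standard errors and intervals are limma's moderated ones, whose spread is estimated from the treated and untreated pairs together and shrunk toward that of all genes.

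By the probe set of highest mean for each gene, pair 2 was the only pair in which both P-glycoprotein transcripts were higher in the SP array. Abcb1b was at 9.77, 7.81 and 8.86 in the non-SP arrays and at 10.0, 9.19 and 8.66 in the SP arrays. Its within-pair differences were 0.25, 1.37 and -0.20, and non-SP array 2 was the lowest of the 6. Abcb1a was at 7.72, 6.59 and 6.59 in the non-SP arrays and at 7.55, 7.97 and 6.47 in the SP arrays. Here SP array 2 was the highest of the 6, with differences of -0.17, 1.38 and -0.12, and the groups overlapped for both genes. The mean differences were 0.47 ± 0.26 (SE) for Abcb1b and 0.36 ± 0.28 (SE) for Abcb1a, neither past the threshold. The SDs of their 3 pair differences, 0.81 and 0.88, were larger than these pooled errors imply. A second Abcb1a probe set gave 0.17, 1.48 and -0.35. A second Abcb1b probe set, with a mean of only 4.33, gave -0.23, -0.31 and 0.41.

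**Figure D1:**
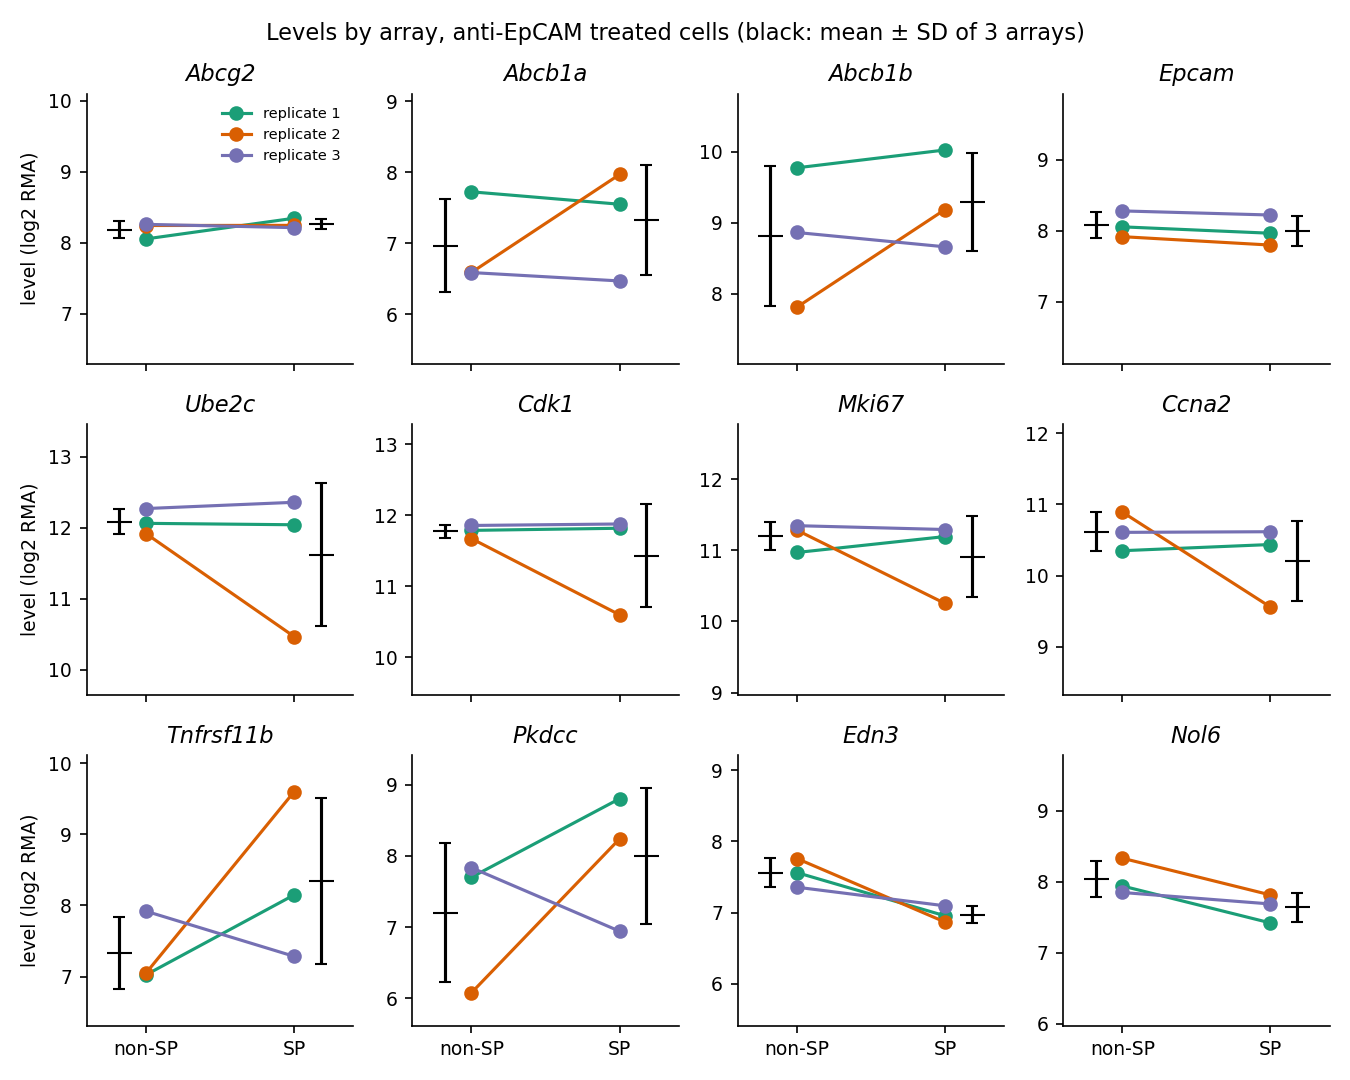
Log2 level (vertical axis) of single genes in the 6 treated arrays, 1 panel a gene, with a line joining the non-SP and SP array of each pair and a vertical span that is the same in all panels, around each gene's own level; black bars give the mean ± SD of the 3 arrays of a group. Abcb1a and Abcb1b stand 1.38 and 1.37 higher in the SP array of pair 2, and Ube2c stands at -1.45 there, while in pair 3 these 3 genes differ by -0.12, -0.20 and 0.09.

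The 3 pairs differed in how far apart their fractions were. The standard deviation of the within-pair difference over genes was 0.28 in pair 1, 0.41 in pair 2 and 0.16 in pair 3. At least 2-fold higher in the SP array were 38 genes (0.209%) of pair 1, 381 (2.09%) of pair 2 and 0 (0%) of pair 3. At least 2-fold lower were 12 (0.066%), 61 (0.335%) and 1 (0.0055%). The highest difference in any pair was that of Mmp13, an interstitial collagenase, at 3.00 in pair 2, named here after its value was seen. The lowest in pair 2 was that of Ube2c, at -1.45.

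Genes of mitosis made up much of the lower end in pair 2. Of 33 measured G2/M genes, 16 were at least 2-fold lower in SP array 2, out of 61 such genes in all. The median difference of the list was 0.21 in pair 1, -0.999 in pair 2 and 0.02 in pair 3, where the medians of all genes were -0.03, -0.10 and 0.01. In pair 2 all 33 lay below the median of all genes, whereas in pair 1 there were 32 above it and 1 below, and in pair 3 there were 17 above and 16 below. Of the list 0 genes passed the test. In every one of the 33 genes SP array 2 was the lowest of the 6 arrays.

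Ube2c, the ubiquitin-conjugating enzyme that serves the anaphase-promoting complex, was at 12.06, 11.92 and 12.27 in the non-SP arrays and at 12.04, 10.47 and 12.36 in the SP arrays. Aurka, a kinase of centrosome maturation, was at 10.1, 9.91 and 10.2 in the non-SP and at 10.3, 8.63 and 10.2 in the SP arrays. Cdk1, the kinase that drives entry into mitosis, was at 11.8, 11.7 and 11.9 in the non-SP and at 11.8, 10.6 and 11.9 in the SP arrays. In these 3 genes 5 of the 6 arrays lay close together and SP array 2 lay below them. The same shape was seen in Ttk, a kinase of the spindle checkpoint, with within-pair differences of 0.05, -1.03 and -0.08. It was also seen in Birc5, the survivin of the chromosomal passenger complex (0.07, -1.08, 0.02), and Ccna2, cyclin A2 (0.09, -1.34, 0.01). Iqgap3, a scaffold protein of proliferating cells, had 0.20, -1.28 and 0.01, and the proliferation antigen Mki67 had 0.22, -1.03 and -0.05. Their mean differences lay between -0.46 (Ube2c) and -0.29 (Mki67), and each had a positive mean without pair 2 except Ttk. The beta-actin 3′ minus 5′ values of pair 2 are the highest of the 6 arrays in both of its fractions, and their part in this and the other differences of pair 2 was not tested.

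G1/S and DNA replication genes showed the same order of pairs at a smaller size. Their 33 measured members had medians of 0.09, -0.38 and -0.03, and 27 of them lay below the median of all genes in pair 2. Uhrf1, which keeps DNA methylation through replication, had differences of 0.40, -0.43 and -0.22, and Mcm5, a subunit of the replicative helicase, 0.33, -0.38 and -0.14. Mcm2, another subunit of that helicase, did not share this order and had 0.34, 0.50 and -0.11. These 3 genes were named after their values were seen.

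Since the G2/M genes were lower together in pair 2, promoters are shown for 5 named members of the list, Ube2c, Aurka, Ttk, Cdk1 and Birc5, and for Iqgap3, which is not on the list but was also among the lowest in pair 2. Promoters of this class are known to carry CCAAT boxes, bound by NF-Y, and the cell cycle genes homology region (CHR), bound by complexes that hold Lin9. The sequences are the 120 bases before the start of the gene, read 5′ to 3′ on the gene's strand from RefSeq on GRCm38.p6, with CCAAT or its reverse complement ATTGG and the CHR letters TTTGAA or TTCAAA in capitals. The Ube2c window is chr2:164769809-164769928 on the + strand, that of Aurka chr2:172370571-172370690 on the - strand, that of Ttk chr9:83834569-83834688 on the + strand and that of Cdk1 chr10:69352913-69353032 on the - strand. The Birc5 window is chr11:117849117-117849236 and that of Iqgap3 chr3:88081931-88082050, both on the + strand.
Ube2c: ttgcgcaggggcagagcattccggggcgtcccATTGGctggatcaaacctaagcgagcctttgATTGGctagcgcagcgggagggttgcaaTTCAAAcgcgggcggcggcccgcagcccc
Aurka: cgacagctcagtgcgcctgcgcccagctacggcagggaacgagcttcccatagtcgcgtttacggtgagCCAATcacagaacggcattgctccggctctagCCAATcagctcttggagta
Ttk: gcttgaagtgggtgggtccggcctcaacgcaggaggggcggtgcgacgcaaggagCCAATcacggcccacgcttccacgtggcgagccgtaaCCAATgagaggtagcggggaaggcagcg
Cdk1: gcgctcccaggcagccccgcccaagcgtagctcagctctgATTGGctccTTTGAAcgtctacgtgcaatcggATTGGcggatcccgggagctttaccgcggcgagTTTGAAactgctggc
Birc5: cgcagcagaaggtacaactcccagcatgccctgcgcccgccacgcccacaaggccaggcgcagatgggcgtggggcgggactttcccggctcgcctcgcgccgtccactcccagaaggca
Iqgap3: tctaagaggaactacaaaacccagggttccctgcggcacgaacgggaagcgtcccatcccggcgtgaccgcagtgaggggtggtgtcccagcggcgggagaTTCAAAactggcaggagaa

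In these windows Ube2c, Aurka, Ttk and Cdk1 hold a pair of CCAAT boxes each, and Ube2c and Cdk1 hold CHR letters as well. Iqgap3 holds CHR letters and no CCAAT, and Birc5 holds neither, although its difference in pair 2, -1.08, was as large as that of Cdk1. Over 250 bases before the start, on both strands, promoters were at hand for 28 of the 33 G2/M genes, 30 promoters in all. Of these, 24 (80%) held CCAAT and 12 (40%) held the CHR letters, against 33.8% and 16% of the 32851 promoters in the table. The G1/S promoters held CCAAT in 61.3% and the CHR letters in 12.9%. Promoters of p53 targets, a list mostly higher in pair 2, held CCAAT in 57.1% and the CHR letters in 9.52%. For ribosome biogenesis genes, also mostly higher there, these shares were 33.3% and 6.67%. A CCAAT share above that of all promoters was thus not confined to lists that were lower in pair 2. A match describes these letters only, and no binding was measured.

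The higher end of pair 2 was made of other genes, and there the non-SP array was often the lowest of the 6. For the 381 genes at least 2-fold higher in SP array 2, the median level in non-SP arrays 1 to 3 was 7.67, 6.79 and 7.45, and in SP arrays 1 to 3 it was 8.05, 8.08 and 7.15. Non-SP array 2 was the lowest of the 6 in 275 of the 381, and SP array 2 was the highest in 186. For the 61 genes at least 2-fold lower, SP array 2 was the lowest of the 6 in 42, and their medians were 5.81, 6.43 and 5.68 in the non-SP and 5.49, 5.33 and 5.85 in the SP arrays. Both sets were chosen by pair 2, so that only the other 4 arrays bear on them beyond that choice. Of the 381 genes, 331 were also higher in the SP array of pair 1 and 43 in that of pair 3, where 43.8% and 53.1% of all genes were higher.

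Tnfrsf11b encodes osteoprotegerin, a secreted decoy receptor for RANKL. It was at 7.02, 7.05 and 7.92 in the non-SP arrays and at 8.15, 9.599 and 7.28 in the SP arrays, with differences of 1.12, 2.55 and -0.63. Kdm6a, a demethylase of histone H3, was at 8.01, 5.74 and 7.60 in the non-SP and at 8.53, 7.98 and 7.32 in the SP arrays. For Kdm6a the low value was that of non-SP array 2, while for Tnfrsf11b SP array 2 was the highest of the 6. Robo1, a receptor for Slit guidance proteins, had differences of 0.94, 2.20 and -0.59. Pkdcc, a secreted tyrosine kinase, had 1.10, 2.16 and -0.89 and was also the lowest of the named genes in pair 3. Matn2, a matrix protein, had 1.14, 1.21 and -0.21. In all 5 genes pairs 1 and 2 had a higher SP value and pair 3 a lower one. Agt and Ces1g were named, like Matn2, for their high differences in pair 1. Ces1g had the same signs, with 1.15, 0.20 and -0.06. Agt did not share them and had 1.16, -0.45 and 0.05.

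Genes that p53 is known to induce were mostly higher in pair 2. Of 22 measured, 20 lay above the median of all genes in pair 2, 15 in pair 1 and 7 in pair 3, with medians of 0.40, 0.00 and -0.05, and 0 passed the test. Ccng1, cyclin G1, was at 12.5, 12.2 and 12.7 in the non-SP and at 12.7, 12.7 and 12.6 in the SP arrays. Non-SP array 2 was again the lowest, with differences of 0.21, 0.53 and -0.10. Tnfrsf10b, a death receptor for TRAIL, had 0.25, 0.39 and 0.02, and Perp, a desmosome protein, 0.05, 0.72 and 0.04. Phlda3, an inhibitor of Akt signalling, ran the other way with -0.24, -0.17 and -0.0079. Cdkn1a, the cell cycle inhibitor p21 and the best known member, had -0.0075, 0.03 and 0.03 and is named after its values were seen.

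Ribosome biogenesis genes had opposite medians in pairs 1 and 2. Of 32 measured, 29 lay above the median of all genes in pair 2 and 8 in pair 1, with medians of -0.11, 0.36 and 0.0046, and 0 passed the test. Wdr43, a factor of small subunit processing, had differences of 0.21, 0.99 and -0.20 from an s_at probe set, and without such probe sets its mean went from 0.33 to -0.05. Ddx21, a nucleolar helicase, had -0.05, 0.91 and -0.07. Dkc1, the pseudouridine synthase of the nucleolus, had -0.08, 0.80 and 0.01, and Npm1, nucleophosmin, 0.23, 0.40 and -0.09. From these probe sets the sign in pair 1 differed among the 4 genes, and that in pair 2 did not. The NF-κB and inflammatory list had a like order, with medians of -0.24, 0.36 and 0.00 over 23 genes and 21 of them below the median of all genes in pair 1. Its member Il6, named after its values were seen, was at 11.31, 8.91 and 8.02 in the non-SP and at 10.99, 10.26 and 7.98 in the SP arrays, so that the replicates lay further apart than the fractions.

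Genes of the Myc network, of interest in a line with a c-myc transgene, had small differences. Their 14 members had medians of 0.02, 0.15 and 0.02, and 9 exceeded the all-gene median and 5 did not, in the mean over pairs. Myc itself was at 10.7, 10.7 and 10.0 in the non-SP and at 10.7, 10.4 and 10.1 in the SP arrays, with differences of 0.0045, -0.35 and 0.03. Mycn had -0.24, -0.65 and 0.00, Mlxipl, a glucose-sensing factor, -0.45, -0.70 and 0.07, and Mycl 0.11, 0.28 and 0.17. Mlxipl, at a mean level of only 4.92, had -0.26, -0.49 and 0.02 after a further quantile normalization. The mean of Mycl turned to -0.03 when all of its probe sets were averaged.

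**Figure D2:**
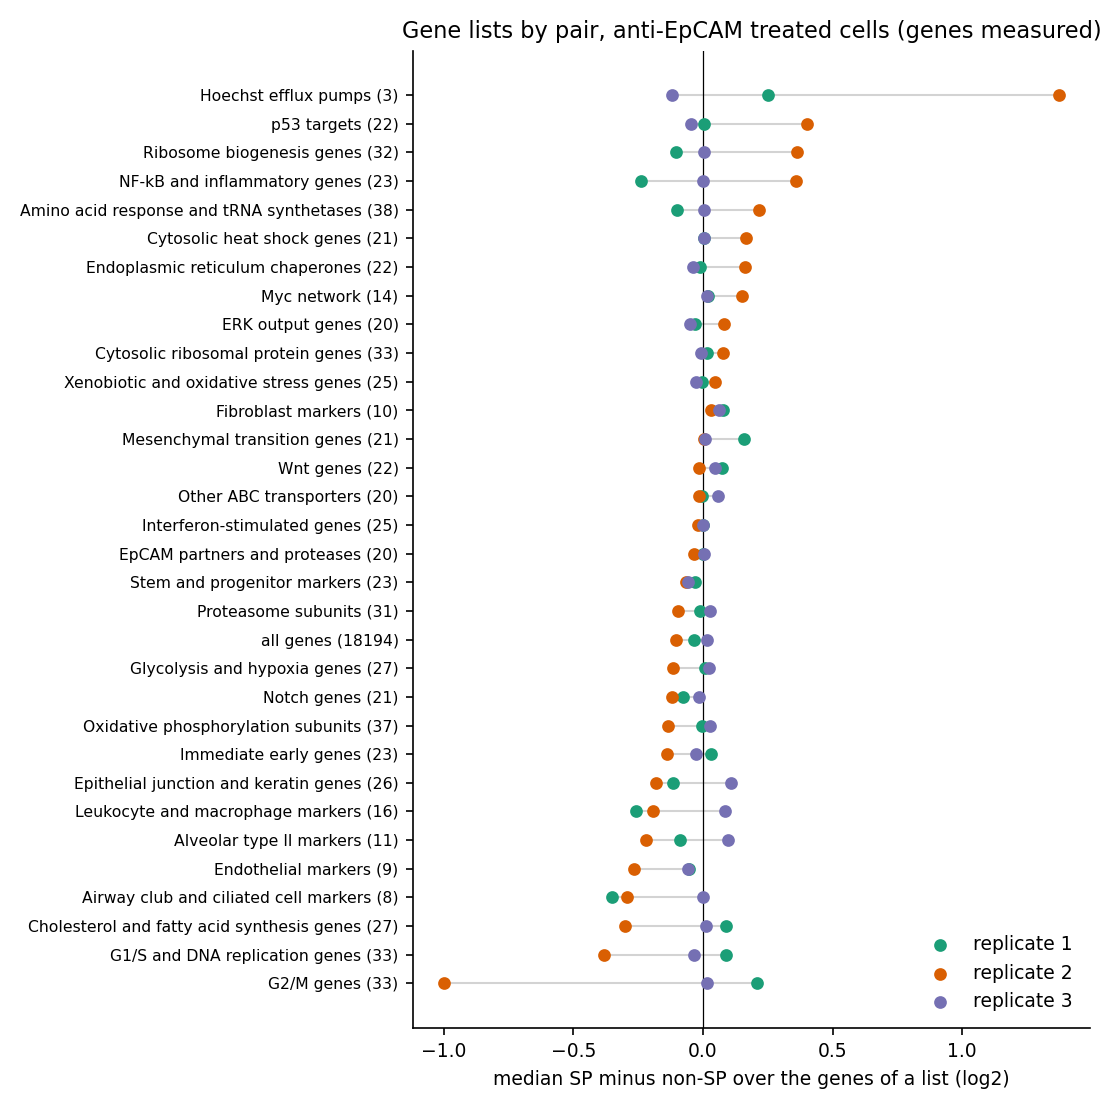
Median SP minus non-SP difference (log2, horizontal axis) of each gene list of at least 8 measured genes, of the efflux pumps and of all genes, with 1 point for each treated pair. Pair 2 holds the extremes, with G2/M genes at -0.999 and pumps at 1.37, and the points of pair 3 lie near 0. The pump list has only 3 genes, and its median in pair 2 is the value of Abcb1b, while Abcg2 is at 0.0020 there.

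Pair 3 ran against pairs 1 and 2. Across the 18194 genes the differences of pairs 1 and 2 had r = 0.50 (Spearman's rho = 0.48), those of pairs 1 and 3 r = -0.39 (rho = -0.37) and those of pairs 2 and 3 r = -0.40 (rho = -0.38). These are descriptions across genes, which are not independent, and no array is shared between pairs. After a further quantile normalization the values of r were 0.41, -0.32 and -0.35. Among the 9097 genes at or above the median level they were 0.32, -0.45 and -0.50. Negative values were not confined to treated pair 3. Across all genes, r in combinations with an untreated pair ran from -0.50 (treated pair 1 and untreated pair 1) to 0.26 (untreated pairs 1 and 2). Untreated pairs 1 and 3 had r = -0.31.

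**Figure D3:**
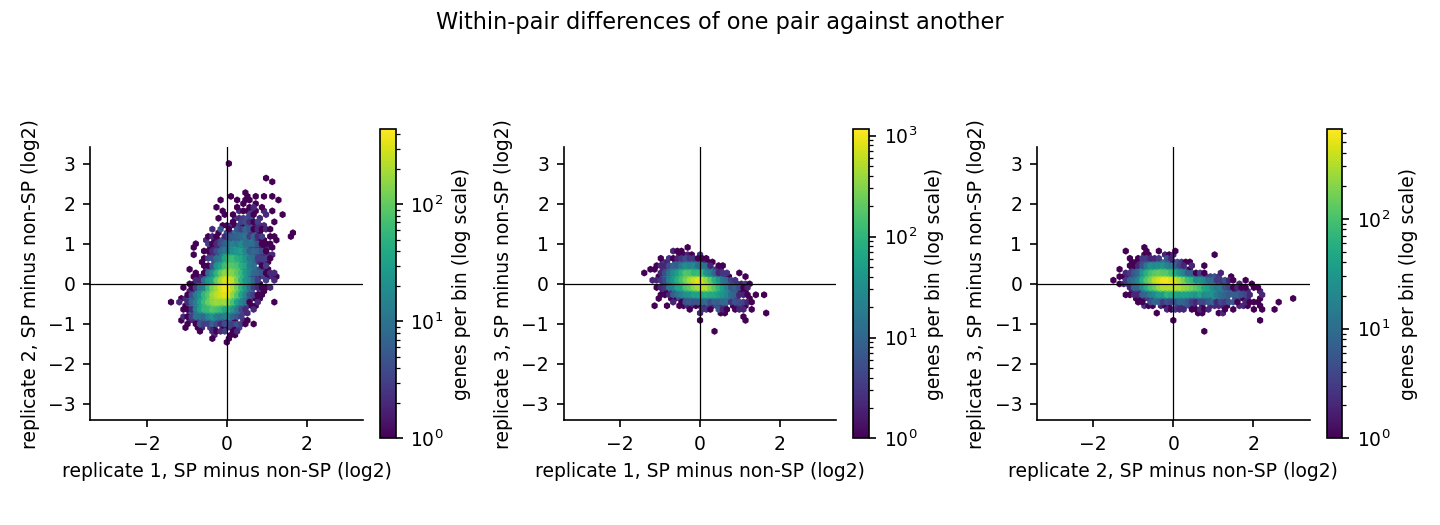
SP minus non-SP differences (log2) of one treated pair against another over 18194 genes, 1 panel for each combination of pairs, shaded by the number of genes on a log scale. The cloud slopes upward for pairs 1 and 2 (r = 0.50) and downward for pairs 1 and 3 (r = -0.39) and pairs 2 and 3 (r = -0.40).

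The genes at the ends of pair 3 show this in single arrays. Lin9, a subunit of the complex that binds CHR elements, was at 8.53, 7.72 and 8.36 in the non-SP and at 9.003, 8.403 and 7.70 in the SP arrays. Its differences were 0.47, 0.68 and -0.66, so that SP array 3 was the lowest of the 6. Caap1, named for inhibiting caspase activity and apoptosis, had 0.66, 1.25 and -0.73. Ccpg1, a receptor for autophagy of the endoplasmic reticulum, had 0.57, 0.62 and -0.66. At the other end, B3galt4, an enzyme of ganglioside synthesis, had -0.34, -0.19 and 0.49, and Caly, a vesicle protein of neurons, -0.32, -0.39 and 0.47. Lrfn1, a synaptic adhesion protein, had -0.36, -0.54 and 0.46. Every one of these 6 genes had 1 sign in pairs 1 and 2 and the other in pair 3.

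Leaving out pair 3 changed the outcome of the test. With pairs 1 and 2 alone in the treated arm, limma called 807 genes (4.44%), 295 higher (1.62%) and 512 lower (2.81%), with a lowest adjusted p of 0.041. Read in pair 3, which was not used for the calls, 28 of the 295 (9.49%) were higher and 90 of the 512 (17.6%) were lower, against 53.1% and 43.4% of all genes. The medians of the 295 in pairs 1 to 3 were 0.59, 1.02 and -0.25, and those of the 512 were -0.59, -0.63 and 0.15. The median level was 7.26 for the 295 and 5.39 for the 512, of which 34 reached the median gene level. All genes are thus not matched in level to the 512. With genes split into 10 groups by level, the third group, which holds the level of 5.39, had medians of -0.23, -0.29 and 0.06. Cdh1 was among the 295 higher genes, at 6.09, 6.10 and 6.16 in the non-SP and at 7.005, 7.03 and 6.14 in the SP arrays. SP arrays 1 and 2 thus lay above the other 4, and SP array 3 was level with its partner. Tspan8, a tetraspanin that binds EpCAM, was among the lower ones, with -0.94, -0.61 and 0.20, though with all of its probe sets averaged its mean over the 3 pairs went from -0.45 to 0.0040. Tnf, which encodes tumour necrosis factor, was lower too and kept its sign in pair 3, with -0.70, -0.69 and -0.25. Of the 295, 39 (13.2%) had names of the Zfp zinc finger series, against 5 of the 512 (0.98%) and 336 of all genes (1.85%), a pattern seen after the calls were made. After a further quantile normalization 0 genes passed without pair 3 in the same limma test, with 3816 at an unadjusted p under 0.05. Among genes at or above the median level 0 passed, with 1601 at an unadjusted p under 0.05. With arrays centred on their medians 1262 passed.

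The size of the differences went with the level of a gene in pairs 1 and 2. When genes were split into 10 equal groups by mean level, the median difference of the third group from the bottom was -0.23 in pair 1, -0.29 in pair 2 and 0.06 in pair 3. In the seventh group it was 0.09, 0.07 and -0.02. In the highest group the medians were -0.0021, -0.0057 and 0.01. After a further quantile normalization every group median of the 3 pairs lay between -0.08 and 0.01. The SD over probe sets was 2.50 in the non-SP and 2.57 in the SP array of pair 1, 2.32 and 2.42 in pair 2, and 2.49 and 2.47 in pair 3. The part of these array-wide differences in the results for single genes was not tested beyond this normalization.

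**Figure D4:**
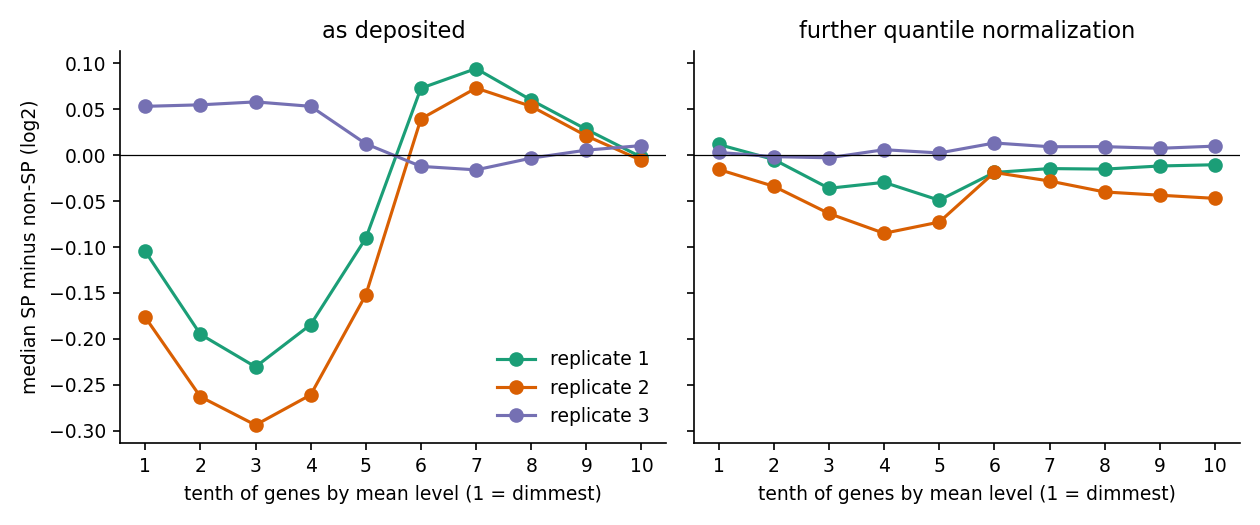
Median SP minus non-SP difference (log2, vertical axis) of genes in 10 equal groups by mean level (horizontal axis, lowest to highest) for the 3 treated pairs, as deposited and after a further quantile normalization. As deposited, pairs 1 and 2 dip to -0.23 and -0.29 in the third group and lie above 0 in the seventh, and after normalization the medians lie between -0.08 and 0.01.

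Genes on the same side in all pairs were fewer and dimmer. By any amount, 1193 genes (6.56%) were higher and 2025 (11.1%) lower in all 3 pairs. For a gene with 1 sign in all 3 pairs the exact two-sided sign-flip p is 0.25. Agreement of sign alone thus sets no gene apart. Lower in all 3 pairs by at least 0.3 were 29 genes (0.159%) and higher by as much was 1 (0.0055%), without a test. The 29 had a median level of 4.75, and none reached the median gene level of 7.02. The 1 higher gene was Myom1, a protein of the muscle M band, with 0.58, 0.48 and 0.45 at a mean level of 4.39. Among the lower ones, Adh1, an alcohol dehydrogenase, had -0.69, -0.39 and -0.37. Cybrd1, an iron reductase, had -0.53, -0.50 and -0.30, and Gzmb, the granzyme B protease, -0.65, -0.47 and -0.32. These 4 genes were chosen after their values were seen. After a further quantile normalization, 24 genes of either direction lay on one side by at least 0.3 in all 3 pairs.

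In 427 genes (2.35%) the 3 SP arrays did not overlap the 3 non-SP arrays, 104 of them (0.572%) with SP above and 323 (1.78%) with SP below. For 3 arrays against 3, the smallest exact two-sided permutation p is 0.1. Non-overlap alone thus sets no gene apart. Among the brighter genes Edn3, the ligand endothelin 3, had the lowest moderated t. It was at 7.56, 7.76 and 7.36 in the non-SP and at 6.95, 6.87 and 7.09 in the SP arrays. Every SP array lay below every non-SP array. The probe set carries an x_at name, and the mean difference was -0.59 ± 0.13 (SE, n = 3 pairs), with a limma adjusted p of 0.628. Nol6, a nucleolar factor of ribosomal RNA processing, did not overlap either, with -0.52, -0.52 and -0.16. Oas1e, of the 2′-5′ oligoadenylate synthetase family, had -0.53, -0.33 and -0.27, and Nfatc2, a calcium-regulated transcription factor, -0.74, -0.45 and -0.05. Fcgr2b, the inhibitory receptor for IgG, overlapped, with -0.78, -0.61 and -0.0080.

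At the higher end of the moderated t, Zfp995, a zinc finger gene, was at 6.96, 6.33 and 7.43 in the non-SP and at 7.78, 7.67 and 7.48 in the SP arrays. The SP arrays lay above the non-SP arrays, though pair 3 differed by only 0.05. Ppp1r12c, a subunit of myosin phosphatase, had 0.48, 0.94 and 0.12. Cry1, a repressor of the circadian clock, had 0.47, 1.38 and 0.13, and Pan3, a subunit of a deadenylase, 0.45, 1.02 and 0.11. The SP value was the higher one in every pair for these 4 genes, and pair 3 had the smallest difference in each. Their limma adjusted p was 0.628.

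Epcam itself, the target of the antibody, differed little between the fractions. It was at 8.05, 7.92 and 8.28 in the non-SP and at 7.96, 7.80 and 8.22 in the SP arrays. The fractions overlapped, and the SP value was the lower one in each pair, by -0.09, -0.12 and -0.06 (mean -0.09, 95% confidence interval -0.30 to 0.12). The probe set carries an x_at name and may take up related transcripts. A second one with a mean of 4.61 gave -0.18, -0.41 and 0.19. Of 20 measured EpCAM partners and proteases, 11 exceeded the median difference of all genes, above which 50% lie by definition. Cldn7, a claudin that binds EpCAM, had -0.32, -0.60 and 0.11, and Adam10, a protease able to shed surface proteins, 0.31, 0.51 and -0.18. Cldn7, at a mean level of only 5.57, had -0.13, -0.43 and 0.05 after a further quantile normalization. No gene of the list passed.

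Stem and progenitor markers showed no common direction. Of 23 measured, 10 exceeded the all-gene median and 13 did not, with medians of -0.03, -0.07 and -0.06 in pairs 1 to 3, and 0 passed the test. Prom1, the CD133 antigen, was at 4.55, 5.27 and 5.10 in the non-SP and at 4.20, 4.38 and 5.13 in the SP arrays. It was lower in SP arrays 1 and 2 and level in pair 3, with groups that overlapped. Its within-pair differences were -0.34, -0.89 and 0.03, and -0.15, -0.68 and -0.03 after a further quantile normalization. Prom1 had a mean level of 4.90. Genes of any kind in its level group, the third of 10, had medians of -0.23, -0.29 and 0.06 before that normalization. Aldh1a3, an aldehyde dehydrogenase used as a progenitor marker, had 0.88, 0.64 and -0.09. By the probe set of highest mean, Cd44, the hyaluronan receptor, had -0.03, 0.16 and -0.20, and Cd24a -0.02, 0.02 and -0.05. Other probe sets of Cd44 gave 0.12, 0.60 and -0.02, and -0.12, 0.13 and 0.10. Its dimmest one, with a mean of 3.54, gave -0.08 in pair 1 and 0.52 in pair 3. Other probe sets of Cd24a gave -0.04, 0.21 and -0.13, and, from an x_at one, 0.41, 0.55 and -0.29. The size of the difference in both genes thus depended on the probe set. Pou5f1, the pluripotency factor Oct4, had SP arrays below all non-SP arrays, with -0.23, -0.33 and -0.23 at a mean level of 4.75. After a further quantile normalization these differences were -0.04, -0.09 and -0.29. Genes of any kind in its level group, the second of 10, had medians of -0.19, -0.26 and 0.05 before that normalization.

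Airway and leukocyte markers were mostly dim, and their summed signal overlapped between the fractions. Of 8 airway club and ciliated cell markers, 7 lay below the median gene level in both fractions, and 7 lay below the median difference of all genes, with list medians of -0.35, -0.29 and 0.0017. After a further quantile normalization these medians were -0.17, -0.07 and -0.03. Foxj1, the master regulator of motile cilia, had -0.51, -0.21 and -0.18 at a mean level of 5.49, and 0.03 in pair 2 after that normalization. The summed signal of the list ran from 11.8 to 12.2 (log2) in non-SP and from 11.5 to 12.1 in SP arrays, most of it from Tubb4b, a tubulin that dividing cells also use. Of 16 leukocyte and macrophage markers, 12 lay below the median difference of all genes, with list medians of -0.26, -0.19 and 0.08, and of -0.12, -0.04 and 0.11 after that normalization. Both lists had median levels, 5.20 and 5.22, that fall in the third of the 10 level groups, where genes of any kind had medians of -0.23, -0.29 and 0.06. Laptm5, a lysosomal protein of leukocytes, ran the other way with 0.12, 0.71 and 0.13, and its mean turned to -0.11 when all of its probe sets were averaged. Their summed signal ran from 10.7 to 11.4 in non-SP and from 10.8 to 11.1 in SP arrays. The brightest was Csf1r, the receptor for macrophage colony-stimulating factor, while Ptprc lay between 3.30 and 3.58. The 10 fibroblast markers had medians of 0.08, 0.03 and 0.06, with a summed signal of 14.0 to 14.3 in non-SP and of 13.5 to 14.3 in SP arrays. In bulk samples fewer cells of a type and less RNA per cell cannot be told apart.

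The treated fraction difference was set against that in the untreated cells in the same limma fit. No gene was called (0%) for the interaction, 1003 (5.51%) had an unadjusted p under 0.05, and the lowest adjusted p was 0.767. The interval of this difference reached 0.38 log2 units to either side in the median gene. Gtf3c2, a subunit of the RNA polymerase III factor TFIIIC, had treated differences of 0.29, 0.56 and 0.15 and untreated ones of -0.49, -0.35 and -0.31. All treated pairs thus stood opposite to all untreated pairs. The G2/M median was -0.67, -0.22 and 0.21 in untreated pairs 1 to 3, so that a lower SP value was not seen in every pair of either treatment.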

How the data were processed

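Transcript levels came from 12 Affymetrix mouse arrays in 4 groups of 3. The deposited values are log2 signals that the authors summarised by RMA, per the submitters' processing notes. The version is not given in the sources used here, nor is any further scaling, and array medians ran from 5.72 to 6.06. Of 45101 probe sets, 34958 had 1 gene symbol in the platform annotation of 2016, 932 had several and 9211 none. The probe set with the highest mean over 12 arrays stood for its gene, without a filter on level, and 1568 genes were read from x_at or s_at probe sets.

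Differences were fitted on all 12 arrays with limma 3.58.1 in R 4.3.3 (lmFit, eBayes, two-sided), with treatment and replicate number as a fixed block and Benjamini-Hochberg adjustment over 18194 genes. The rule of the comparison pairs arrays by replicate number. As a check, each array was taken as its distance from the mean of its group, gene by gene. These distances correlated within a pair at 0.75, 0.62 and 0.56 in treated cells and at 0.66, 0.84 and 0.55 in untreated cells. The pairing thus rests on the labels' numbers and this check, and the labels do not state that a pair shared a culture.

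Members, 34 gene lists (688 of 758 genes measured) and the rule for named genes were chosen with earlier results of these data known. Named were the 8 highest and 8 lowest moderated t and the 4 highest and 4 lowest differences of each pair among genes at or above the median level without clone names, up to 4 genes by p of 9 lists, the 3 highest and 3 lowest of the interaction, and a fixed set of 10, of which 1 is not reported here. Others are said to be chosen after their values were seen. Alternatives were no block, a random block, only treated arrays, centred arrays, a further quantile normalization, another eBayes setting, a level filter, other choices of probe set and leaving out each replicate. Their combinations with a left-out pair were chosen after seeing the data. Figures were drawn with matplotlib 3.10.9, and tables were made with pandas 2.3.3 under Python 3.11.15. Promoter windows are RefSeq's on GRCm38.p6, with chromosome 18 left out.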

Additional observations from a re-analysis of the deposited data

Results flagged for a closer look

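In 8 named genes all 3 treated pairs had the opposite sign to all 3 untreated pairs. The interaction, treated minus untreated fraction difference on the log2 scale, was 0.73 for Ppp1r12c, 0.72 for Gtf3c2, 0.70 for Eif2ak2, the interferon-induced kinase PKR, and 0.44 for Zbtb34. It was -0.64 for Cbfa2t3, a transcriptional corepressor, -0.66 for Fcgr2b, -0.61 for Miat, a long noncoding RNA, and -0.37 for Tekt1, a protein of cilia. The limma interaction test called none of them, with a lowest adjusted p of 0.767 over all genes, and several were named because their interaction t was extreme. The opposite signs were kept under both centring and a further quantile normalization by Ppp1r12c, Gtf3c2, Eif2ak2, Cbfa2t3 and Miat. They were lost under both by Zbtb34, at 0.01 and 0.0051 in untreated pair 2, and by Fcgr2b, at 0.0038 and 0.03 in treated pair 3. Tekt1 lost them after quantile normalization, at 0.03 in treated pair 2. The median interaction of the stem and progenitor list was -0.0371, with treated list medians below 0 and untreated list medians above 0 in all 3 pairs each. After quantile normalization the median was 0.0023 in treated pair 2 and -0.01 in untreated pair 1, so that this pattern was lost. The list difference was not tested.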

How the results depend on the processing

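The 77 named genes gave 909 values under the alternatives, of which 851 kept sign and side of the threshold, 21 passed it and 37 changed sign. No gene was called for the treated comparison in any setting with all 3 pairs. Leaving out 1 replicate gave 0 to 807 called genes, 357 to 5161 at an unadjusted p under 0.05 and 61 to 2711 on one side by at least 0.3. That last count then asks for agreement in the remaining pairs only, a looser condition than in all 3. Without the replicate block 127 genes had an unadjusted p under 0.05, with the treated arrays alone 588, and with genes at or above the median level 221, where 9097 genes were tested. One-sided genes numbered 0 at or above the median level, 19 with probe sets averaged, 165 at a step of 0.2 and 2 at a step of 0.5. Of the settings chosen after seeing the data, quantile normalization without replicate 3 gave 3816 and without replicate 2 434 genes at an unadjusted p under 0.05, and centring without replicate 3 gave 1262 called and 5378. The stem list median was -0.0068 after quantile normalization, 0.0247 at or above the median level and -0.0097 with probe sets averaged, and -0.0565 to -0.0281 without a replicate. With probe sets averaged the EpCAM list had 0.0059 and the Myc network -0.0136, and the latter ran from -0.0307 to 0.143 without a replicate.

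Snhg12 had -0.0046 after centring and -0.0116 after quantile normalization. With probe sets averaged, Synj2 had -0.0373, Mycl -0.0280, Laptm5 -0.11, Tspan8 0.0040, Cd44 0.10 and Cd24a 0.0732, and without x_at and s_at probe sets Ilrun had -0.23 and Wdr43 -0.0504. Over the left-out replicates, the mean difference ran from -0.15 to 0.63 for Abcb1a, -0.0223 to 0.15 for Abcg2, -0.20 to 0.60 for Agt, -0.63 to 0.0824 for Aurka, -0.26 to 0.15 for B3galt4, -0.53 to 0.0436 for Birc5, -0.0338 to 0.95 for Caap1, -0.35 to 0.0765 for Caly and -0.66 to 0.0475 for Ccna2. It ran from -0.0431 to 0.60 for Ccpg1, -0.0338 to 0.0010 for Cd24a, -0.12 to 0.0667 for Cd44, -0.53 to 0.0260 for Cdk1, -0.0601 to 0.43 for Ddx21, -0.0336 to 0.41 for Dkc1, -0.64 to 0.10 for Iqgap3 and -0.0950 to 0.57 for Lin9. For Lrfn1 it ran from -0.45 to 0.0517, for Mki67 -0.54 to 0.0854, for Myc -0.17 to 0.0175, for Snhg12 -0.44 to 0.41, for Togaram2 -0.31 to 0.0596 and for Ube2c -0.73 to 0.0344. The cause of these changes was not tested. Signal over background was not measured, so dim genes have no limit of their own.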
